A study of Mus musculus with 8 samples.

Results

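Chromatin accessibility was examined at 10 genes of Toll-like receptor signalling: the receptors Tlr1, Tlr2, Tlr3, Tlr4, Tlr6, Tlr7 and Tlr9, the co-receptor Cd14 and the adaptors Myd88 and Ticam1. The set comprises all peaks that the deposited annotation assigns to one of these genes by name, 58 of 67822 peaks, and the 10 genes stand among 16095 genes with a peak. The data are ATAC-seq, in which a transposase cuts open chromatin and inserts sequencing adapters, of CD11b+ cells enriched as microglia on magnetic columns from mouse forebrain. Wild-type mice of C57BL/6N background (4 libraries) were compared with Cias1 knockout mice, named Nlrp3-/- and credited to Millennium Pharmaceuticals (4 libraries). Cias1 is an older name of Nlrp3, the sensor protein of an inflammasome. No group received a further treatment in the labels, and the age and sex of the mice, the background of the knockout line and the deleted sequence are unstated there. Whether the replicates are separate animals is likewise unstated, and the p-values therefore speak only of the spread among these libraries, which may be technical.

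Toll-like receptors recognise conserved microbial molecules and products of damaged cells. TLR1, TLR2, TLR4 and TLR6 act at the cell surface, TLR3, TLR7 and TLR9 bind nucleic acids in endosomes, and CD14 hands lipopolysaccharide and other ligands to the receptors. MyD88 carries the signal of nearly all of them to NF-kB and MAP kinases, while TRIF, the product of Ticam1, serves TLR3 and endocytosed TLR4 and leads to IRF3 and type I interferon. In microglia and other macrophages this signalling is the classical priming step that raises Nlrp3 and Il1b transcription before an inflammasome forms.

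The promoter table of RefSeq (GRCm38.p6) matched 7 of the 10 genes with 9 start-site windows, each from 250 bases before to 50 bases after a start. It holds no entry for Tlr4, Tlr7 and Cd14. A deposited peak overlapped 6 of the 9 windows. The 250 bases before the start are shown for 4 genes whose windows are overlapped by a start-site peak and hold one of the motifs searched, 2 receptors of nucleic acids and the 2 adaptors. A Tlr6 window also meets this, with 1 C/EBP and 3 TATA box matches, and is not shown. Sequences run 5′ to 3′ on the gene's strand, and capitals mark motif matches on either strand.
Tlr9 (chr9:106222348-106222597, plus strand): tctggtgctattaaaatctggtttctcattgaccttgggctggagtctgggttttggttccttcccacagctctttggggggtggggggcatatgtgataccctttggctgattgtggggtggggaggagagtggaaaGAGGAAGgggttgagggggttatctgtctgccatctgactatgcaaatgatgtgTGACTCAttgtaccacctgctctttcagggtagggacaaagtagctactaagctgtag
Tlr3 (chr8:45410381-45410630, minus strand): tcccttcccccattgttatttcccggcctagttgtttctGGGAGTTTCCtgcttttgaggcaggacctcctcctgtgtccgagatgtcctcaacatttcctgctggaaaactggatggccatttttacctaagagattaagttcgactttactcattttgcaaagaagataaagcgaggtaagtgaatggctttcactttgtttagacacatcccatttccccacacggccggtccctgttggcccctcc
Myd88 (chr9:119340019-119340268, minus strand): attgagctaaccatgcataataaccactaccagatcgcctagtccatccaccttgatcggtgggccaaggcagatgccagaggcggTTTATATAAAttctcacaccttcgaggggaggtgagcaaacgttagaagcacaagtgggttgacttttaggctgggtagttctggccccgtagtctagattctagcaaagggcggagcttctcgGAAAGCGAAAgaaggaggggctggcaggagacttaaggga
Ticam1 (chr17:56276768-56277017, minus strand): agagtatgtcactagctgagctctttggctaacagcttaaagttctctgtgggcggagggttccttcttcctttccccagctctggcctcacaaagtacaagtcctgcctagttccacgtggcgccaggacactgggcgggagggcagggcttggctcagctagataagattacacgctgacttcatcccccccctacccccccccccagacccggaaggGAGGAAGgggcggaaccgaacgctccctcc
The motifs searched on both strands were PU.1 (GAGGAAG), IRF (GAAANNGAAA), a PU.1-IRF composite (GGAANTGAAA), AP-1 (TGANTCA), NF-kB (GGGNNTTTCC), C/EBP (TTGCNNCAA) and the TATA box (TATAAA). PU.1 and IRF factors are lineage factors of macrophages, and NF-kB and AP-1 are end points of the receptors' own signalling. In the Tlr9 sequence the capitals mark a PU.1 match that begins 112 bases before the start and an AP-1 match that begins 58 bases before it; a second PU.1 match begins 12 bases after the start, past the end of the sequence shown. The Tlr3 sequence holds an NF-kB match that begins 211 bases before the start. The Myd88 sequence holds an IRF match that begins 40 bases before the start and a pair of TATA box matches that overlap each other. The Ticam1 sequence holds a PU.1 match that begins 30 bases before the start. The deposited start-site peaks cover the Tlr9 matches and the IRF match of Myd88, but not the NF-kB match of Tlr3, the PU.1 match of Ticam1 or the TATA box matches of Myd88. No match to one motif overlapped a match to another in these windows. Among all 32851 windows in the table, 13.6% held the PU.1 letters, 3.44% IRF, 0.73% the composite, 7.81% AP-1, 1.63% NF-kB, 2.08% C/EBP and 13.6% the TATA box. The Tlr9 window has no CpG dinucleotide, which is so in 5.43% of all windows, whereas the Myd88 window has an observed-to-expected CpG ratio of 0.61 against a median of 0.38. A match to these letters is a description of the sequence and does not show that a factor binds there.

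Libraries held 11325865 to 15521580 tags, of which 9.79% to 17.5% lay in peaks in the wild type. In knockout replicates 1 to 4 the share in peaks was 6.68%, 4.96%, 20.9% and 26.2%, so the knockout group holds both the thinnest and the richest libraries. The member peaks together received 1506 to 2210 tags per wild-type library and 812, 652, 2512 and 3374 tags in knockout replicates 1 to 4. The 2 promoter peaks of Nlrp3 had between 54 and 80 tags per wild-type library and 1 and 2 tags over all knockout libraries, which checks the labels. Chromosome Y received 201 and 255 tags in wild-type replicates 3 and 4, 88 in knockout replicate 3, and 1 to 13 in each other library. All 10 microglial marker genes were accessible, with summed levels of 2032 to 2336 CPM in wild-type and 2292 to 2535 CPM in knockout libraries. CPM here are tag counts per 1000000 tags in tested peaks or genes after TMM scaling, which equalises libraries on the bulk of their peaks. Border macrophages and monocytes also use Toll-like receptors, and 7 of 8 of their markers were measured, at 296 to 384 CPM in the wild type and 245 to 447 CPM in the knockout. Such sums depend on the number and length of the peaks. Per kb of peak the wild type had 52.5 CPM at microglial and 57.8 at border macrophage and monocyte markers. The levels were 50.8 for oligodendrocytes, 45.0 for astrocytes, 38.7 for vascular cells and 36.6 for neurons. Per length, the microglial markers thus did not stand above all the others. No tested marker of microglia, border macrophages, neurons, astrocytes, oligodendrocytes or vascular cells passed the test. A change in the mix of CD11b+ cells and a change of accessibility within each cell cannot be told apart in such bulk libraries.

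The members' peaks formed a mixed landscape of start-site and distal elements. Of the 58 peaks, 28 were intergenic, 13 intronic, 12 at promoters, 3 exonic, 1 at a transcription termination site and 1 in a 3′ UTR. Their median width was 269 bp (203 to 410 bp), 45 lay within 20 kb of the start site of the assigned gene, and the farthest lay 49002 bp away. The authors merged a peak list of the wild type with one of the knockout, and 54 member peaks (93.1%) came from both lists, as against 75.5% of all peaks. The remaining 4 comprised 3 peaks from the wild-type list, assigned to Ticam1, Tlr6 and Tlr9, and 1 from the knockout list, assigned to Cd14. After the filter on low counts, 53 of the 58 peaks were tested. Their median wild-type level per length was 45.4 CPM per kb of peak, beside 40.02 CPM per kb for all tested peaks. Some assigned peaks lie inside other genes: the Ticam1 peak 6749 bp upstream in intron 5 of Plin3, the Tlr7 peak 23220 bp upstream in intron 4 of Prps2, and the Tlr9 peaks at 11542 and 11919 bp in exon 11 and intron 10 of Alas1. Nearest-gene assignment does not show which gene such a peak serves.

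The tested peak nearest the start site was the strongest element at 3 of the 10 genes. The highest member peak of all was that of Ticam1, 188 bp upstream of the start, at 332 ± 47.8 CPM per kb of peak (SD, n = 4 wild-type libraries), above 99.7% of all tested peaks. The start-site peaks of Tlr4 (226.5 ± 30.5 CPM per kb, 94 bp downstream) and Tlr9 (173 ± 10.7 CPM per kb, 47 bp upstream) were likewise the strongest of their genes. For the other 7 genes the peak with the highest wild-type level lay elsewhere. At Tlr2 it was an intergenic peak 21516 bp upstream, with 219 ± 25.04 CPM per kb against 125 ± 15.8 at the start site. At Tlr3 an intergenic peak 4556 bp upstream had 149 ± 24.6 CPM per kb, 3.52 times the 42.3 ± 11.9 of the start-site peak. At Tlr1 a peak 48238 bp downstream of the start, past the end of the gene, had 131 ± 25.3 CPM per kb against 30.4 ± 12.6 for the peak nearest the start. At Tlr6 a peak 855 bp upstream of the start used by the peak annotation had 137.5 ± 18.7 CPM per kb against 54.2 ± 11.0 at that start. The RefSeq span of Tlr6, 64953092 to 64970942 on the minus strand, reaches past this peak, which thus lies inside the gene. The nearest Tlr1 peak lies 827 bp upstream and overlapped no start-site window, and the Tlr6 peak 855 bp upstream is itself annotated as promoter. In these 4 genes the distal or upstream peak exceeded the peak nearest the start in 8 of 8 libraries. The 4 knockout libraries among them did not enter the choice. For Tlr7, Cd14 and Myd88 the ratio was 1.53, 1.24 and 1.24, and the order held in 6, 5 and 5 of 8 libraries, so it was not separated from the spread.

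**Figure D1:**
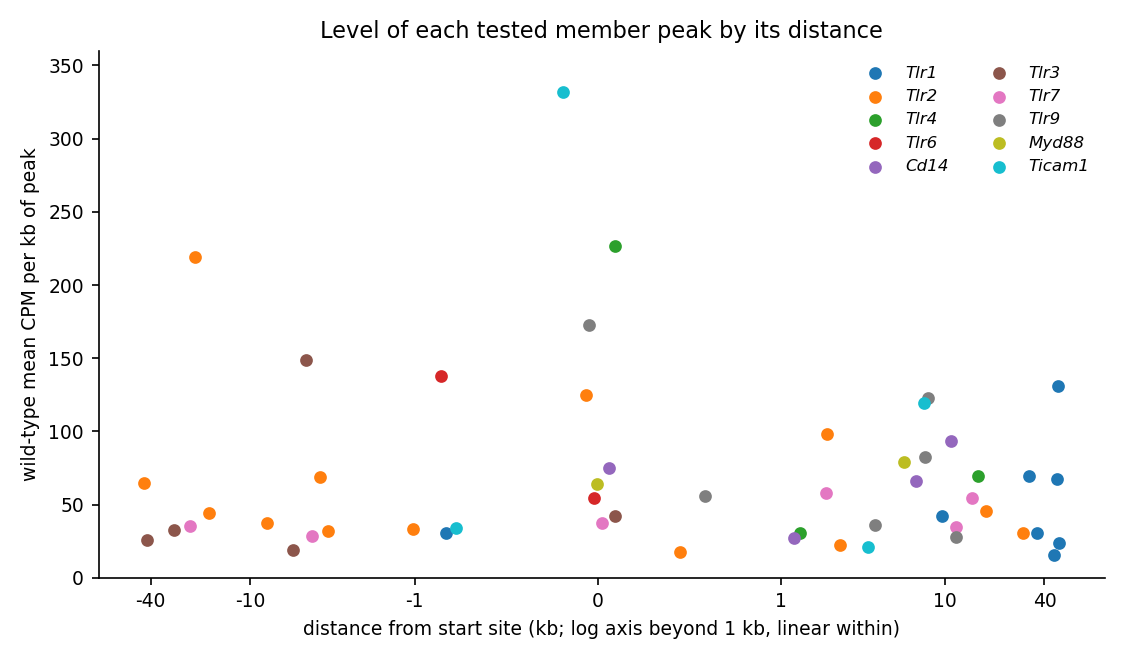
Wild-type mean level of each of the 53 tested member peaks (CPM per kb of peak, vertical axis) against its distance from the start site of the assigned gene (kb, horizontal axis, logarithmic beyond 1 kb), with 1 colour per gene and 1 point per peak. The Ticam1 start-site peak stands highest at 332 CPM per kb, and the strongest peaks of Tlr2, Tlr3, Tlr1 and Tlr6 lie away from 0.

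Summed over its peaks and divided by their length, accessibility in the wild type ran from Tlr4 at 110.1 ± 16.9 CPM per kb, through Ticam1 at 94.5 ± 11.99, to Tlr7 at 40.7 ± 7.45. Tlr6 (71.7 ± 6.83), Tlr9 (69.4 ± 5.36) and Myd88 (68.9 ± 6.16) formed a middle group whose neighbours were separated by 2.29 and 0.48 CPM per kb, less than the spread of 9.77 and 5.54 of the within-library differences. Tlr2 (59.3 ± 7.28), Cd14 (54.9 ± 5.76), Tlr3 (46.3 ± 6.15) and Tlr1 (46.2 ± 4.68) followed. Of the 9 neighbouring pairs in this order, the step from Ticam1 to Tlr6 was the one that held in 8 of 8 libraries. Tlr3 and Tlr1 were level, with the order holding in 5 of 8 libraries. These levels depend on how many weak distal peaks the annotation gives a gene and are not expression.

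Loss of Nlrp3 left no called change at any member. Of the 53 tested peaks, 0 passed edgeR's quasi-likelihood test at a Benjamini-Hochberg adjusted p under 0.05, where 0.17% of all 58135 tested peaks passed (99 peaks; 0.055% higher and 0.115% lower in the knockout). None of the 53 had an unadjusted p under 0.05, against 4.83% of all tested peaks, and DESeq2, run on all 58 without the filter, called 0 with 1 at an unadjusted p under 0.05, the Tlr9 peak at 11919 bp. The groups did not overlap at 2 of the 53 peaks (3.77%), near the 3.17% of all tested peaks. Fold changes were above 0 at 27 peaks and below 0 at 26, with a median log2 fold change of 0.0028, beside 0.0037 for all tested peaks. They ranged from -0.58 to 0.53 (log2, knockout over wild type). At this depth single peaks are measured coarsely: the 95% interval lay within 1.5-fold either way at 15 of 53 peaks and within 2-fold at 45. Changes smaller than these bounds could go uncalled at single elements, above all at those with few tags.

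Gene sums were measured more tightly. Tags were summed over all peaks of a gene, and 0 of the 10 members passed, where 0.213% of 15476 tested genes passed. The counts at an unadjusted p under 0.05 were 0 of 10 by edgeR and 0 of 10 by DESeq2, against 5.96% of all genes by edgeR. In all 10 the groups overlapped, and 3.46% of all genes had groups that did not. The log2 fold changes of the sums ran from -0.041 (Ticam1) to 0.15 (Tlr4), with a median of 0.042 beside 0.0020 for all genes. All 10 of the 95% intervals lay within 1.5-fold, the lowest bound being 0.81-fold (Tlr6) and the highest 1.32-fold (Tlr4). Scaled to all tags in place of tags in peaks, the median of all genes moved to 0.088 and that of the members to 0.14, with all 10 above 0 and 0 called, so the direction of these small values rests on the scaling. The intervals were then far wider, from -1.28 to 1.61 (log2), and the 1.5-fold bound holds only for scaling to tags in peaks.

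**Figure D2:**
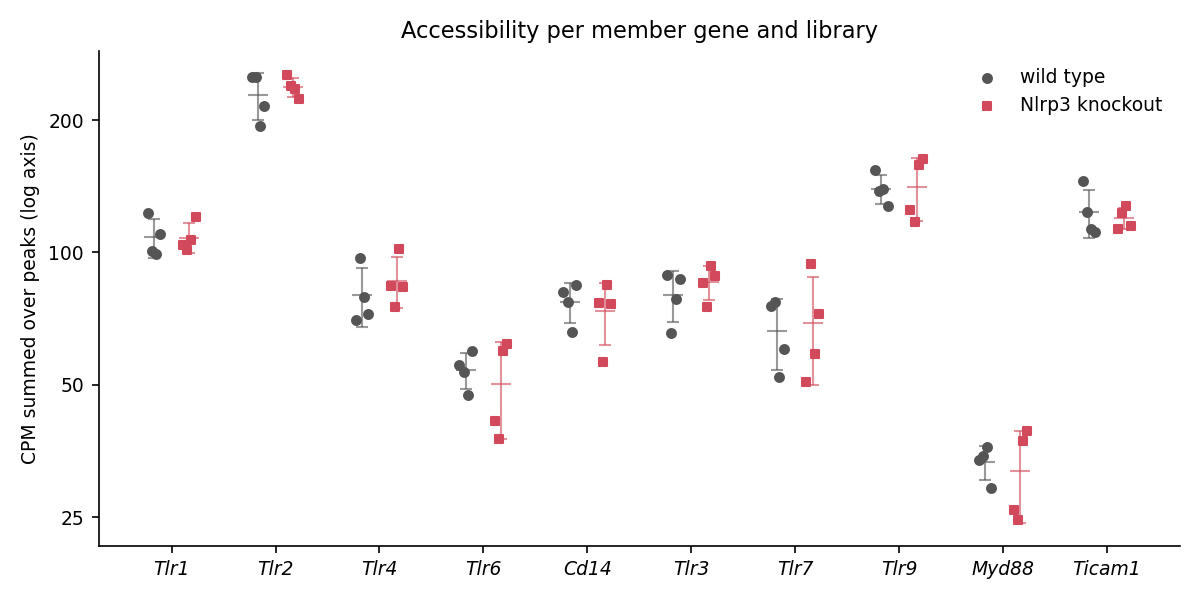
Accessibility of each of the 10 genes in every library as CPM summed over its peaks (vertical axis, logarithmic), with grey circles for the 4 wild-type and red squares for the 4 knockout libraries and bars for the mean ± SD. The 2 genotypes overlap at every gene, and knockout libraries fall on both sides of the wild type at Tlr6, Tlr7, Tlr9 and Myd88.

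**Figure D3:**
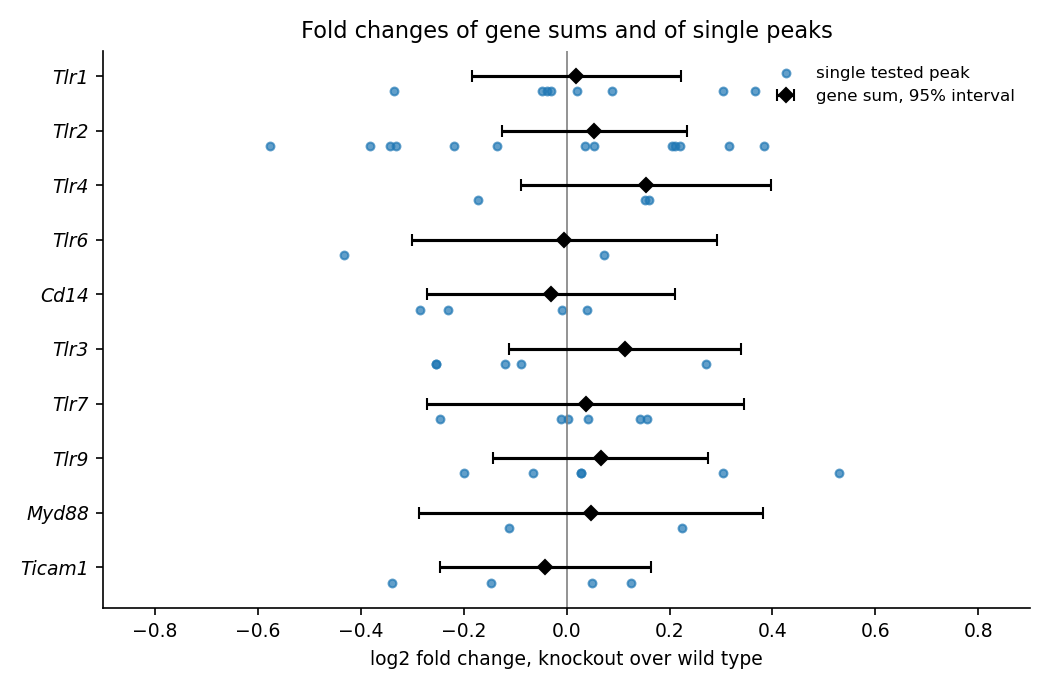
Log2 fold change of knockout over wild type for the gene sums (black diamonds with 95% intervals) and for each tested peak (blue points), by gene. With TMM scaling all 10 intervals include 0 and stay within 1.5-fold (they reach -1.28 and 1.61 when scaled to all tags), while single peaks spread from -0.58 to 0.53.

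Cd14, the co-receptor that concentrates ligand on the receptors (chromosome 18, 36725064 to 36726815, mm10), has 5 assigned peaks, of which 4 were tested. Its sum was 81.4, 77.03, 66.0 and 84.4 CPM in wild-type replicates 1 to 4 and 76.7, 56.4, 84.2 and 76.3 CPM in knockout replicates 1 to 4. Knockout replicate 2 was lowest, and the rest of the knockout fell inside the wild-type range. The log2 fold change was -0.030 (SE 0.12; edgeR adjusted p = 0.99). At the start-site peak, 64 bp downstream of the start, levels were 20.8 ± 4.16 CPM in the wild type and 21.4 ± 3.77 CPM in the knockout. The fitted log2 fold change, -0.0099, has the opposite sign to the difference of these means. Its smallest p belonged to an intergenic peak at 6654 bp, with 20.3 ± 2.92 against 14.9 ± 6.90 CPM and an unadjusted p of 0.34. The peak 1019 bp upstream, from the knockout list, held 3 to 12 tags in wild-type and 3 to 17 in knockout libraries and was too thin to test.

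Tlr4, the lipopolysaccharide receptor (chromosome 4, 66827551 to 66846581), showed the largest fold change of the 10 sums, and it did not pass. Wild-type replicates 1 to 4 had 70.2, 97.3, 79.3 and 72.5 CPM, and knockout replicates 1 to 4 had 83.8, 75.2, 102 and 83.4 CPM. Knockout replicate 3 was the highest library and wild-type replicate 1 the lowest, with 3 of the knockout values between them. The log2 fold change was 0.15 (95% interval -0.088 to 0.40; unadjusted p = 0.20, edgeR adjusted p = 0.92). Most of the signal came from the start-site peak, at 59.1 ± 7.96 CPM in the wild type and 63.9 ± 10.3 in the knockout. The other 2 peaks lie in intron 1 and in the 3′ UTR, in exon 3. Without wild-type replicate 2 the sum had a log2 fold change of 0.25 with an unadjusted p of 0.046 (adjusted p = 0.98).

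Tlr2, which pairs with TLR1 or TLR6 to recognise bacterial lipopeptides (chromosome 3, 83836272 to 83841824), had 13 peaks, the most of any member, and all were tested. Its sum was 251, 251, 194 and 215 CPM in wild-type replicates 1 to 4 and 253, 239, 236 and 223 CPM in knockout replicates 1 to 4. The knockout values were closer together, between the extremes of the wild type apart from replicate 1. The fitted log2 fold change was 0.054 (SE 0.087; edgeR adjusted p = 0.98). Both member peaks without overlap between the genotypes belong to this gene, and they point in opposite directions. The start-site peak, 61 bp upstream, had 28.3, 36.5, 37.0 and 37.7 CPM in the wild type and 39.8, 39.9, 37.8 and 42.7 CPM in the knockout. Wild-type replicate 1 lay well below the rest, and the gap between the nearest libraries, 37.7 and 37.8 CPM, was narrow. The fitted log2 fold change was 0.21 (95% interval -0.12 to 0.54; unadjusted p = 0.21). The peak 1020 bp upstream had 7.96, 7.73, 6.26 and 8.38 CPM in the wild type and 6.03, 4.43, 4.39 and 5.50 CPM in the knockout. Every knockout library lay below every wild-type library there, on 3 to 18 tags per library. Its log2 fold change of -0.58 (95% interval -1.24 to 0.087) had the smallest p of the 53 tested member peaks, 0.086, and an edgeR adjusted p of 1.00. The strongest peak of the gene, 21516 bp upstream, had 56.8 ± 6.49 CPM in the wild type and 66.9 ± 7.82 in the knockout, and the groups overlapped (log2 0.22, unadjusted p = 0.13).

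Tlr1 and Tlr6, the partners of TLR2, are neighbours on chromosome 5 (64924680 to 64933600 and 64953092 to 64970942). The 8 peaks of Tlr1 summed to 123, 101, 99.0 and 110.1 CPM in wild-type replicates 1 to 4 and 104, 101, 107 and 121 CPM in knockout replicates 1 to 4. The values interleave, with means of 108.1 ± 11.0 and 108.1 ± 8.58 CPM and a fitted log2 fold change of 0.019 (SE 0.098). The fit gives libraries with more tags more weight, and its sign is opposite to that of the difference between these means, -0.075 CPM. At the Tlr1 peak 827 bp upstream the log2 fold change was -0.030, and the smallest p of the gene was 0.18, at a peak at 32278 bp (log2 0.30).

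At Tlr6 the sum was 55.6, 53.4, 47.3 and 59.7 CPM in wild-type replicates 1 to 4 and 41.3, 37.6, 59.7 and 61.8 CPM in knockout replicates 1 to 4. Knockout replicates 1 and 2 lay below every wild-type library, and replicates 3 and 4 lay at its upper end or above it. The log2 fold change was -0.0043 (SE 0.14; edgeR adjusted p = 1.00). Its start-site peak, 18 bp upstream, had 6.03, 4.43, 11.4 and 10.4 CPM in knockout replicates 1 to 4 and 8.95 to 14.9 CPM in the wild type (log2 -0.43, unadjusted p = 0.13). Knockout replicates 1 and 2 were again below every wild-type library, while replicates 3 and 4 lay inside the wild-type range. The stronger peak 855 bp upstream had 40.2 ± 5.47 CPM in the wild type and 40.004 ± 9.66 in the knockout.

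Tlr3, the receptor of double-stranded RNA (chromosome 8, 45395665 to 45411075), had a sum of 88.7, 65.5, 78.2 and 87.1 CPM in wild-type replicates 1 to 4. Knockout replicates 1 to 4 had 85.0, 75.2, 93.1 and 88.4 CPM. Only knockout replicate 3 exceeded the wild-type range, and the log2 fold change was 0.11 (SE 0.11; edgeR adjusted p = 0.94). The dominant peak 4556 bp upstream had 54.7, 38.7, 39.8 and 43.8 CPM in the wild type and 48.3, 45.8, 59.3 and 56.0 CPM in the knockout. All knockout libraries lay above 3 of the wild-type libraries, while wild-type replicate 1 lay among them. This gave a log2 fold change of 0.27 (95% interval -0.046 to 0.59), an unadjusted p of 0.091 and an edgeR adjusted p of 1.00. Without wild-type replicate 1 the unadjusted p was 0.017 (log2 0.39; adjusted p = 0.64). The start-site peak, which does not reach the NF-kB letters shown above, was weak, at 11.2 ± 3.18 and 9.98 ± 3.84 CPM (log2 -0.25).

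Tlr7, the receptor of single-stranded RNA, lies on the X chromosome (167303380 to 167330574). Its sum was 75.6, 77.03, 52.1 and 60.1 CPM in wild-type replicates 1 to 4 and 50.8, 94.0, 58.8 and 72.3 CPM in knockout replicates 1 to 4. Knockout replicate 2 was the highest library and knockout replicate 1 the lowest, so the knockout enclosed the whole wild-type range. Genotypes differed by a log2 fold change of 0.037 (SE 0.15; edgeR adjusted p = 0.99). In the wild type, the 2 libraries with many chromosome Y tags were those with the lower values, 52.1 and 60.1 CPM against 75.6 and 77.03. The knockout library with many chromosome Y tags had 58.8 CPM, within the 50.8 to 94.0 CPM of the others. Among libraries with few such tags the mean was 76.3 CPM in the wild type and 72.4 in the knockout, and among those with many 56.1 and 58.8. With chromosome Y as a term, the log2 fold change was -0.033 (edgeR adjusted p = 1.00). The start-site peak, 23 bp downstream, had 10.1 ± 4.62 and 9.31 ± 3.25 CPM (log2 -0.25, unadjusted p = 0.46).

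Tlr9, the receptor of unmethylated CpG DNA (chromosome 9, 106222598 to 106226876), had 7 peaks, of which 6 were tested. Wild-type replicates 1 to 4 summed to 154, 138, 139 and 127 CPM, and knockout replicates 1 to 4 to 125, 117, 158 and 163 CPM. Knockout replicates 1 and 2 lay below every wild-type library, and replicates 3 and 4 above every one. This gave a log2 fold change of 0.066 (SE 0.10; edgeR adjusted p = 0.97). The start-site peak, whose upstream sequence holds the PU.1 and AP-1 letters, had 48.2, 54.1, 48.4 and 47.5 CPM in the wild type and 38.6, 42.8, 48.7 and 62.8 CPM in the knockout. The wild type was narrow there and the knockout spread to either side of it, with means of 49.6 and 48.2 CPM and a fitted log2 fold change of the opposite sign, 0.028 (95% interval -0.29 to 0.35). The largest fold change upward of any tested member peak was at 11542 bp, in the last exon of Alas1, with 9.19 ± 2.90 and 13.4 ± 6.11 CPM (log2 0.53, unadjusted p = 0.094). Next to it, in intron 10 of Alas1, the peak at 11919 bp did not reach the count filter, with 19, 16, 7 and 8 tags in the wild type and 5, 2, 4 and 8 tags in the knockout. With no filter it had a log2 fold change of -1.26 (95% interval -2.21 to -0.31) and an unadjusted p of 0.011, and its edgeR adjusted p was 0.77. It was listed in the wild type only.

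Myd88 (chromosome 9, 119335934 to 119340018), the shared adaptor, has only 2 peaks and was the least covered member, with 17 to 127 tags per library. Its sum was 33.6, 34.5, 36.2 and 29.2 CPM in wild-type replicates 1 to 4 and 25.97, 24.6, 37.2 and 39.2 CPM in knockout replicates 1 to 4. As at Tlr9, knockout replicates 1 and 2 lay below and replicates 3 and 4 above every wild-type library. The fitted log2 fold change was 0.047 (95% interval -0.29 to 0.38; edgeR adjusted p = 0.99), while the knockout mean minus the wild-type mean was -1.60 CPM; the fit gives more weight to the deeper libraries. The start-site peak, 6 bp upstream, had 14.5 ± 2.71 and 15.6 ± 4.63 CPM (log2 0.22, unadjusted p = 0.35). The peak at 5577 bp, past the end of the gene, had 20.4 ± 4.18 and 17.3 ± 5.03 CPM.

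Ticam1 (chromosome 17, 56269462 to 56276767), encoding the adaptor TRIF, had a sum of 145, 124, 113 and 111 CPM in wild-type replicates 1 to 4 and 113, 123, 127 and 115 CPM in knockout replicates 1 to 4. Wild-type replicate 1 was the highest, and the knockout lay within the wild-type range. The log2 fold change was -0.041 (SE 0.099; edgeR adjusted p = 0.99). At the strong start-site peak the wild type had 96.0, 82.2, 70.6 and 72.7 CPM and the knockout 86.9, 73.8, 89.6 and 80.5 CPM, interleaved throughout (log2 0.050, 95% interval -0.22 to 0.32). The smallest p of the gene, 0.13, belonged to the peak at its transcription termination site, 7441 bp downstream, with 28.03 ± 2.27 and 21.1 ± 8.74 CPM (log2 -0.34). That difference came with a value of 8.45 CPM in knockout replicate 1, while the other 3 knockout libraries had 22.3 to 27.2 CPM.

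At Tlr6, Tlr9 and Myd88 the split within the knockout followed the same libraries: replicates 1 and 2, with 6.68% and 4.96% of their tags in peaks, against replicates 3 and 4, with 20.9% and 26.2%. Not all members shared this split. At Tlr7 knockout replicate 1 was the lowest library (50.8 CPM) and replicate 2 the highest (94.0 CPM). At Tlr2 replicates 1 and 2 had the highest knockout values (253 and 239 CPM). The part of the share of tags in peaks in these levels was not tested. Without knockout replicates 1 and 2, the log2 fold change of the Tlr9 sum was 0.20 with an unadjusted p of 0.040 (edgeR adjusted p = 0.70), and 0 of the 10 sums passed.

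Around Tlr9, the picture differed from that at its own peaks. Within 1 Mb of the gene 87 peaks were tested and 11 passed (12.6%, beside 0.17% of all tested peaks), 10 lower and 1 higher in the knockout. The nearest, 35.4 kb downstream of the Tlr9 start, was assigned to Alas1, which encodes the rate-limiting enzyme of haem synthesis. It had 10.4 ± 2.95 CPM in the wild type and 1.87 ± 0.64 CPM in the knockout (log2 -2.21, SE 0.39, edgeR adjusted p = 0.0072). On the other side the nearest called peak, assigned to Pik3r4, lay 610.4 kb upstream (log2 -1.55). Most of that stretch was not measured, with no tested peak between positions 105643094 and 106147396. Between the nearest called peaks on either side 21 peaks were tested, the 6 of Tlr9 and 15 of other genes. With called peaks as the bounds, 0 of these could pass by edgeR, so that count is no result. Of the 21, 1 had an unadjusted p under 0.05. That peak, assigned to Glyctk and 65.9 kb upstream, had a log2 fold change of 1.63 and fell just short of a call (edgeR adjusted p = 0.063). Among the called peaks the lowest log2 fold changes were -4.14, assigned to Atp2c1, and -3.24, assigned to Dusp7. The peak that rose, assigned to Pcbp4, had 3.62. Chromosome 9 as a whole held 26 of the 99 called peaks. The background of the knockout line is unstated, so the loss of Nlrp3 and another difference of that line cannot be told apart here. The count was 7 without wild-type replicate 1 and 2 with scaling to all tags, and the Alas1 call was lost without wild-type replicate 3 (adjusted p = 0.053). Within 1 Mb of Myd88, on the same chromosome, 1 of 109 tested peaks passed, assigned to Scn10a and 397 kb from the gene (log2 -3.10). No called peak lay within 1 Mb of any of the other 8 members. Between 3 (Tlr4) and 145 (Tlr6) peaks were tested there, with 28 around Tlr3 and 36 around Tlr7. These numbers are small for a share of 0.17%, so the absence of a call tells little.

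**Figure D4:**
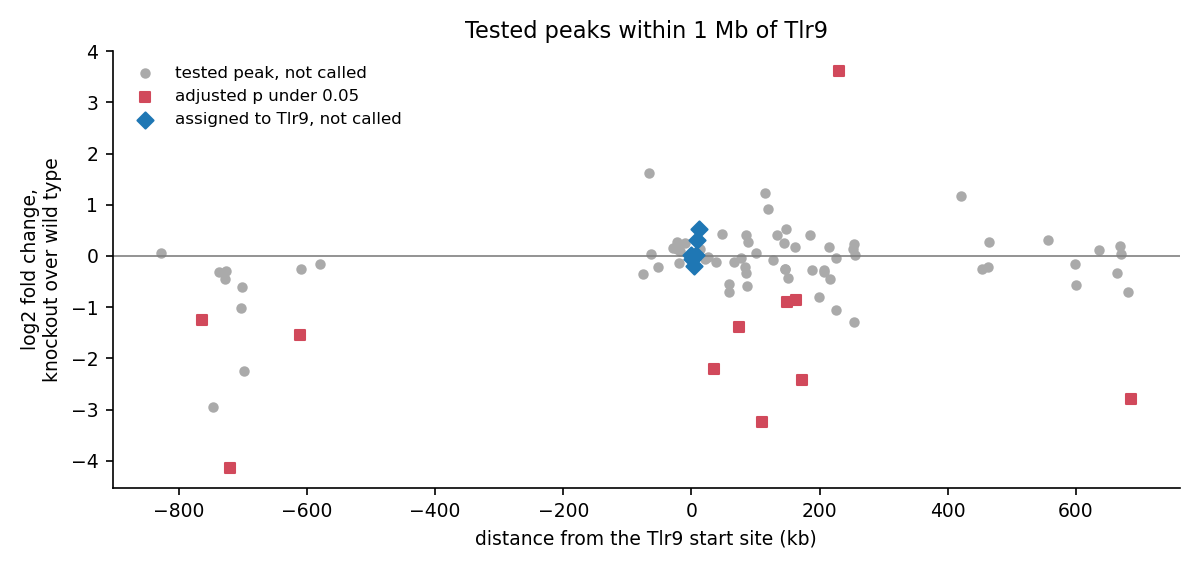
Log2 fold change of knockout over wild type for the 87 tested peaks within 1 Mb of Tlr9 (vertical axis) against distance from its start site (kb, horizontal axis), with the 6 Tlr9 peaks as blue diamonds, called peaks as red squares and other tested peaks as grey circles. Called peaks, 10 of them below 0, begin 35.4 kb downstream and 610.4 kb upstream, and the Tlr9 peaks lie between -0.20 and 0.53. Most of the upstream stretch up to the first called peak holds no tested peak.

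Other genes of the pathway were read from 3 lists of 53 genes, of which 51 were tested. Lbp and Nlrc3 were not tested. The lists were chosen with earlier results of these data known, so their counts and medians describe only the listed genes. Of the 51, 1 rose and 0 fell, beside 0.0775% and 0.136% of all tested genes, and 4 had an unadjusted p under 0.05, where 5.96% of all tested genes did. Among the other Toll-like receptors and accessory proteins, such as the endosomal chaperone Unc93b1 and the TLR4 partner Ly96, 0 of 12 passed (median log2 fold change 0.070). Among the other adaptors and proximal kinases and ligases 0 of 25 passed (median 0.0034), and among the negative regulators 1 of 14 passed (median 0.083), beside a median of 0.0020 for all genes. The gene that rose was Atf3, encoding a stress-induced transcription factor that restrains cytokine genes. Its 19 peaks summed to 455, 392, 338 and 403 CPM in wild-type replicates 1 to 4 and 616, 540, 540 and 478 CPM in knockout replicates 1 to 4. Every knockout library lay above every wild-type library (log2 0.44, SE 0.089; edgeR adjusted p = 0.025). The Atf3 call was lost in 6 of 8 refits that left out 1 library, all but those without wild-type replicate 1 or knockout replicate 4, with adjusted p from 0.052 (without knockout replicate 2) to 0.13 (without wild-type replicate 2). It was also lost with scaling to all tags, without knockout replicates 1 and 2 together (0.15) and with peaks within 20 kb only (0.051).

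Dusp1, encoding a phosphatase that switches off MAP kinases, had 555 ± 48.6 CPM in the wild type and 697 ± 62.5 in the knockout without overlap, but did not pass (log2 0.32; edgeR adjusted p = 0.17). DESeq2 called the sum (adjusted p = 0.023), as did edgeR with robust moderation (0.048). Among the 26 peaks assigned to Dusp1, that at 26500674 to 26501338 on chromosome 17 passed by itself. It had 13.4 ± 2.71 CPM in the wild type and 31.8 ± 8.09 in the knockout (log2 1.19, edgeR adjusted p = 0.014). Traf3, a ubiquitin ligase shared by the MyD88 and TRIF branches, had a log2 fold change of 0.19 (edgeR adjusted p = 0.80). In the other direction the smallest p values belonged to Cyld, a deubiquitinase that restrains NF-kB (log2 -0.25; edgeR adjusted p = 0.74), Pik3ap1, an adaptor linking the receptors to PI3 kinase (-0.13; 0.87), and Ube2n, the ubiquitin-conjugating enzyme that works with TRAF6 (-0.15; 0.89).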

How the data were processed

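ATAC-seq was measured in 8 libraries of forebrain CD11b+ cells, 4 per genotype. Per the submitters' processing notes, Bowtie2, HOMER, DESeq2 and the mm10 build were used. Their versions, an offset of reads for transposase binding and duplicate removal were not given in the sources used here. Per the file headers, the authors merged the peak lists of both genotypes and deposited raw tag counts per peak, with at most 3 tags per position. Libraries were size-selected to 165 to 250 bp, which favours short fragments, and sequenced single-end for 51 cycles, per the labels' protocols. The deposited normalized table was not used.

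Counts were fitted with edgeR 4.0.16 (R 4.3.3; TMM scaling, filterByExpr at a minimum count of 10, quasi-likelihood F test, genotype as the only term) over all peaks, and over tags summed by assigned gene, with Benjamini-Hochberg adjustment over everything tested and a threshold of 0.05. The fit was tested on simulated data. The 117 peaks with no gene name held 0.13% of tags in peaks and stayed out of the gene sums. Intervals are 95%. Gene coordinates are from RefSeq (GRCm38.p6). Levels are mean ± SD over 4 libraries. Per-length levels are CPM per kb of peak. Peaks given with full statistics were, for each gene, the one nearest the start site and the one with the smallest p; pathway genes named were those that passed and, higher and lower alike, the 3 of smallest p. The strongest peak of each gene, the untested peaks, the Dusp1 peak and the chromosome 9 neighbourhood were chosen after their values were seen. The members, the pathway lists and the tests were chosen with earlier results of these data known. Alternatives were other scalings (RLE, all tags), DESeq2 1.42.0, no filter, robust moderation, a replicate block, a chromosome Y term, leaving out libraries, and peaks within 20 kb only.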

Additional observations from a re-analysis of the deposited data

Results flagged for a closer look

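Of 64 groups of 4 libraries examined, 4 held a library far from the other 3 (a gap above Dixon's critical value at the 95% level), and chance alone flags about 1 in 20 such groups. In the knockout, the Tlr1 peak at 32278 bp was low in replicate 2 (13.3 CPM, others 20.4 to 21.7). The Tlr3 start-site peak was high in knockout replicate 1 (15.7 CPM, others 7.38 to 8.78). Among wild-type libraries, the Tlr2 start-site peak was low in replicate 1 (28.3 CPM, others 36.5 to 37.7), and the Tlr9 start-site peak was high in replicate 2 (54.1 CPM, others 47.5 to 48.4).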

How the results depend on the processing

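No member passed under any alternative run, as a peak or as a sum, so the counts of 0 held throughout; at an unadjusted p under 0.05 the highest counts were 3 peaks, without knockout replicates 1 and 2 together, and 1 sum, there (Tlr9) and without wild-type replicate 2 (Tlr4). Scaling to all tags gave 19 called peaks over the genome (9 higher, 10 lower), 5 genes, 0 pathway genes and 2 peaks within 1 Mb of Tlr9. Without knockout replicates 1 and 2 together there were 246 peaks (52 higher, 194 lower), 70 genes and 0 pathway genes. Pathway genes called numbered 2 with robust moderation, 2 with DESeq2 and 0 with peaks within 20 kb only; DESeq2 called 21 peaks higher. The replicate block called 65 peaks as higher; same-numbered libraries correlated at -0.0078, 0.096, -0.0083 and 0.15 over peaks and 0.014, 0.093, -0.024 and 0.19 over genes; not every library correlated best with its own number, and the numbers were not taken as a pairing. The block called 140 peaks, 38 genes and 0 members. Leaving out 1 library gave 65 to 123 called peaks (22 to 66 higher, 42 to 75 lower), 20 to 42 genes, 0 to 1 pathway genes and 7 to 11 peaks within 1 Mb of Tlr9; the lowest and highest totals of called peaks came without knockout replicates 3 and 4. Signs of small log2 values turned. The sums became, for Tlr6, 0.15 with all tags, 0.0096 with the chromosome Y term, 0.17 without knockout replicates 1 and 2 and 0.011 within 20 kb; for Cd14, 0.085 with all tags and 0.047 without those 2 libraries; for Ticam1, 0.033 with all tags; and for Tlr7, -0.033 with the chromosome Y term. The Cd14 start-site peak became 0.030 with all tags, 0.064 with the replicate block and 0.0045 with DESeq2, the Cd14 peak at 6654 bp 0.037 without knockout replicates 1 and 2, and the Tlr1 peak nearest the start 0.045 with all tags and 0.064 without those libraries. Over the leave-one-out fits the sums ranged over -0.054 to 0.085 (Tlr1), -0.014 to 0.10 (Tlr2), -0.12 to 0.072 (Tlr6), -0.063 to 0.12 (Tlr7), -0.014 to 0.13 (Tlr9), -0.11 to 0.036 (Cd14), -0.080 to 0.11 (Myd88) and -0.090 to 0.048 (Ticam1). The peaks nearest the start ranged over -0.34 to 0.27 (Tlr1), -0.39 to 0.065 (Tlr7), -0.15 to 0.11 (Tlr9), -0.11 to 0.11 (Cd14) and -0.013 to 0.15 (Ticam1). The cause of these changes was not tested. Depth limits single peaks: the median tested peak held 8 tags in the thinnest and 36 in the richest library.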
